A study of Caenorhabditis elegans with 6 samples.

Results

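The p38 and JNK stress kinase cascades were followed through 10 genes in young adult Caenorhabditis elegans hermaphrodites given X-rays from a linear accelerator. The genes were taken by name from the deposited gene table: tir-1, nsy-1, sek-1, pmk-1 and atf-7 of the p38 arm, mlk-1, mek-1, kgb-1 and jnk-1 of the JNK arm, and vhp-1, which acts on both. They are 10 of 45292 genes listed, and 10 of 10 members were among the 14417 genes with enough reads to be tested. The groups were worms given 0 Gy, 200 Gy or 400 Gy (gray, a measure of absorbed radiation), with 2 RNA-seq libraries each. Worms of all 3 groups were irradiated or left unirradiated as synchronized adults past the last larval stage, and the sources used here give no strain or mutation. They also do not give the time from irradiation to harvest. Nor do they say whether replicates were grown separately, so the spread behind each p-value is that of these libraries and may be technical.

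In these cascades a signal passes down a chain of kinases, each of which phosphorylates the next. In the p38 arm the adaptor TIR-1 activates the first kinase NSY-1, which acts on SEK-1, which acts on the p38 kinase PMK-1, and PMK-1 phosphorylates the transcription factor ATF-7. This arm is best known in C. elegans for the defence of the intestine and epidermis against infection. In the JNK arm MLK-1 acts on MEK-1 and MEK-1 on the JNK-like kinase KGB-1, which is known for tolerance of heavy metals and for axon regrowth, while JNK-1 works mainly in neurons. VHP-1 is a phosphatase that switches off both PMK-1 and KGB-1. The activity of the cascades lies in phosphorylation, which RNA levels do not measure.

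The RNA came from whole worms, so fewer cells of a type and less RNA per cell cannot be told apart. Levels are CPM, in which each count is divided by the depth of its library after scaling of the libraries by the trimmed mean of M-values, and are given in the order of replicate 1 and replicate 2 of a dose. Total counts ran from 9554479 to 12315765 per library. Ribosomal RNA genes took from 0.696% of them (replicate 1 of 400 Gy) to 9.26% (replicate 2 of 400 Gy). The libraries differed in how their reads were spread over short and long genes, and this trend moved with the dose. The log2 deviation of a library changed with each doubling of coding length by 0.069 and 0.052 in the 0 Gy libraries, by -0.28 and -0.53 in the 200 Gy libraries and by 0.42 and 0.28 in the 400 Gy libraries. Across all tested genes the Spearman correlation of the log2 fold change with coding length was -0.53 for 200 Gy against 0 Gy, 0.39 for 400 Gy against 0 Gy and 0.69 for 400 Gy against 200 Gy. Genes share the libraries, so these values are descriptions. The members range from 1011 bases of coding sequence for sek-1 to 4497 for nsy-1, and the members' results are therefore given also from a fit that removed the length trend from each library (length-corrected). A length trend of the libraries and a response of long genes to dose cannot be told apart in this design.

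**Figure D1:**
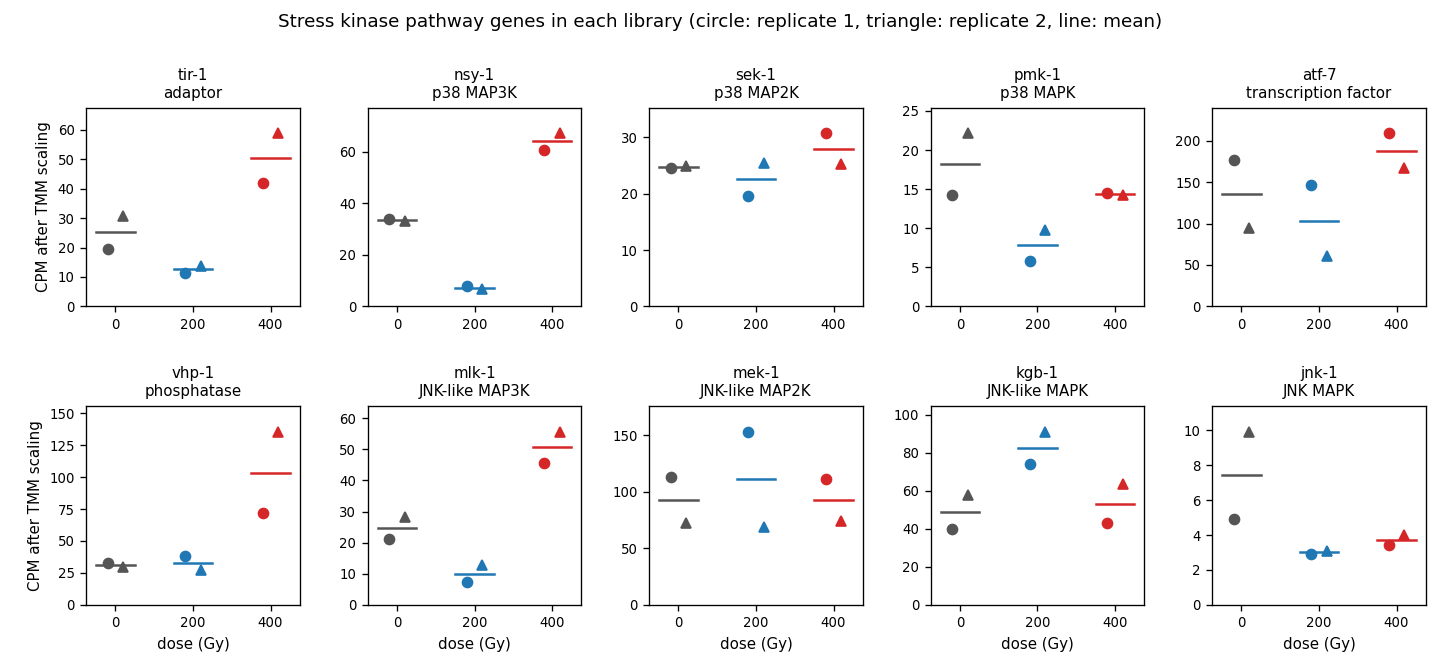
Level of each of the 10 members in each of the 6 libraries (points, CPM on a linear axis scaled for each gene) against dose. The 200 Gy points of tir-1, nsy-1, pmk-1, mlk-1 and jnk-1 lie below the other 4 points of the gene, and the 400 Gy points of tir-1, nsy-1, vhp-1 and mlk-1 lie above the other 4.

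Among the 10 genes, the adaptor, the first kinases and the phosphatase were the ones that passed a test. Before the length correction, the log2 fold changes of the middle kinases sek-1 and mek-1 lay between -0.26 and 0.31. Those of pmk-1 and jnk-1 reached -1.21 and -1.30 at 200 Gy against 0 Gy without passing. The kinase gene nsy-1 fell at 200 Gy against 0 Gy and 0 members rose. No member passed at 400 Gy against 0 Gy in this test, and tir-1, nsy-1, vhp-1 and mlk-1 were higher at 400 Gy than at 200 Gy. The 4 genes called in any comparison are the 4 members with the longest coding sequence in the deposited table. With the length correction 0 members passed in any of the 3 comparisons, and 2, 2 and 1 of 10 had an unadjusted p under 0.05, beside 27.4%, 18.1% and 25.6% of all genes. For 400 Gy against 200 Gy sek-1 was then at 0.64, beside 0.45 for nsy-1, 0.44 for vhp-1, 0.24 for mlk-1 and -0.29 for tir-1. A gene passed at an adjusted p under 0.05 in the quasi-likelihood test of edgeR, adjusted by Benjamini-Hochberg over all 14417 genes.

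In the p38 arm, the adaptor gene tir-1 (chromosome III, 3870183 to 3891010, minus strand of the WBcel235 build; 3611 bases of coding length) encodes the worm counterpart of the mammalian SARM1 protein. It stood at 19.6 and 30.8 CPM at 0 Gy, at 11.3 and 13.9 CPM at 200 Gy, and at 41.9 and 58.7 CPM at 400 Gy. The 3 doses did not overlap, with 200 Gy lowest and 400 Gy highest. Its log2 fold change was 2.00 ± 0.37 (standard error, SE) for 400 Gy against 200 Gy (edgeR adjusted p = 0.00743), a rise past the threshold. Against 0 Gy it was -0.999 ± 0.36 at 200 Gy (edgeR adjusted p = 0.0887) and 1.00 ± 0.36 at 400 Gy (edgeR adjusted p = 0.164), neither past the threshold. Length-corrected, the same values in the same order were -0.29, 0.38 and 0.084, so that the sign turned in both comparisons with the 200 Gy libraries. The Ensembl gene runs from 3869590 to 3901642, past the end given in the table, with 3563 coding bases over all its transcripts and 2955 in the longest. The length-corrected and per-length values of tir-1 rest on the length in the table.

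The gene nsy-1 (chromosome II, 5022914 to 5029592, plus strand; 4497 bases) encodes a MAP kinase kinase kinase of the ASK1 type and is the longest of the 10. Its level was 33.8 and 33.0 CPM at 0 Gy, 7.95 and 6.64 CPM at 200 Gy, and 60.8 and 67 CPM at 400 Gy. The libraries of a dose lay close together and the 3 doses were clearly apart. It fell at 200 Gy against 0 Gy (log2 fold change -2.20 ± 0.31, edgeR adjusted p = 0.0213), the only member called in that comparison. Its level was higher at 400 Gy than at 200 Gy by 3.13 ± 0.32 on the log2 scale (edgeR adjusted p = 0.00265). The difference of 0.93 ± 0.29 between 400 Gy and 0 Gy did not pass (edgeR adjusted p = 0.129). Genes of similar length moved the same way: with all genes split by coding length into 10 classes of equal size, the class of the longest genes, which holds nsy-1, tir-1 and mlk-1, had median log2 fold changes of -1.33, 0.95 and 2.30 for 200 Gy against 0 Gy, 400 Gy against 0 Gy and 400 Gy against 200 Gy. Length-corrected, nsy-1 was at -0.68 ± 0.34 for 200 Gy against 0 Gy (edgeR adjusted p = 0.225) and at 0.45 ± 0.34 for 400 Gy against 200 Gy (edgeR adjusted p = 0.427). Without replicate 1 or replicate 2 of 0 Gy, the fall at 200 Gy kept its size (-2.17 and -2.23) but not its call (edgeR adjusted p = 0.102 and 0.179).

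The next kinase of the chain, encoded by sek-1 (chromosome X, 7816804 to 7820063, plus strand; 1011 bases), had narrower differences. It was at 24.5 and 24.96 CPM at 0 Gy, 19.7 and 25.4 CPM at 200 Gy, and 30.7 and 25.2 CPM at 400 Gy. The 200 Gy libraries overlapped those of both other doses. Its log2 fold change was -0.13 at 200 Gy against 0 Gy (95% confidence interval -0.85 to 0.58, edgeR adjusted p = 0.788) and 0.18 at 400 Gy against 0 Gy (-0.54 to 0.89, edgeR adjusted p = 0.763). In this fit, which carries the length trend, a change of sek-1 as large as that of nsy-1 at 200 Gy lies outside its interval. Length-corrected, the values were -0.31 and 0.33, and 0.64 for 400 Gy against 200 Gy (edgeR adjusted p = 0.242). The length-corrected interval of sek-1 for 200 Gy against 0 Gy, -1.03 to 0.41, holds the length-corrected nsy-1 value of -0.68.

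The p38 gene pmk-1 (chromosome IV, 8148806 to 8150741, plus strand; 1134 bases) was at 14.3 and 22.1 CPM at 0 Gy, 5.86 and 9.82 CPM at 200 Gy, and 14.5 and 14.3 CPM at 400 Gy. Both 200 Gy libraries lay below the other 4, while those of 0 Gy and 400 Gy overlapped. The log2 fold change was -1.21 ± 0.41 for 200 Gy against 0 Gy (edgeR adjusted p = 0.0758) and 0.86 ± 0.41 for 400 Gy against 200 Gy (edgeR adjusted p = 0.142), so neither passed. The size of both values was kept when the length trend was removed, at -1.26 ± 0.40 (edgeR adjusted p = 0.094) and 1.02 ± 0.40 (edgeR adjusted p = 0.155). Genes of its length class had a median of 0.13 at 200 Gy against 0 Gy, opposite in sign, and of 0.11 length-corrected. The correction thus had little to move at this length. The DESeq2 Wald test called pmk-1 lower at 200 Gy against 0 Gy (adjusted p = 0.0486), as did edgeR without replicate 2 of 200 Gy (-1.73, adjusted p = 0.0424).

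The 3 p38 genes are neighbours: pmk-3, pmk-2 and pmk-1 lie in a row on the plus strand, with gaps of 345 and 145 bases in the Ensembl annotation of the same build. The gene pmk-2, which acts in neurons, had 5.73 and 10.3 CPM at 0 Gy, 3.49 and 5.10 CPM at 200 Gy, and 5.17 and 6.26 CPM at 400 Gy. Its log2 fold change at 200 Gy against 0 Gy was -0.89 ± 0.47 (edgeR adjusted p = 0.205), and -0.87 length-corrected. The gene pmk-3, a p38 kinase of the axon pathway of DLK-1, was at 16.4 and 31.96 CPM at 0 Gy and at 16.9 and 19.2 CPM at 200 Gy, with -0.42 ± 0.39 (edgeR adjusted p = 0.462), and -0.23 length-corrected. All 3 had negative values in that comparison and 0 of 3 passed the test.

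ATF-7, a bZIP protein that represses defence genes until PMK-1 phosphorylates it, is encoded by atf-7 (chromosome III, 4492306 to 4498535, minus strand; 1599 bases). Its level was 177 and 94.6 CPM at 0 Gy, 146 and 60.8 CPM at 200 Gy, and 209 and 167 CPM at 400 Gy. Replicate 1 was higher than replicate 2 at every dose, and the 400 Gy libraries overlapped those at 0 Gy and not those at 200 Gy. No comparison passed: log2 fold changes were -0.39 ± 0.50 for 200 Gy against 0 Gy, 0.47 ± 0.50 for 400 Gy against 0 Gy and 0.86 ± 0.50 for 400 Gy against 200 Gy (edgeR adjusted p = 0.596, 0.601 and 0.219). Length-corrected they were -0.077, 0.33 and 0.41 (edgeR adjusted p = 0.931, 0.762 and 0.601). Single libraries decided values of the fit with no length correction. Without replicate 1 of 0 Gy, 200 Gy against 0 Gy gave 0.14. Without replicate 1 of 200 Gy, atf-7 was called lower at 200 Gy against 0 Gy (-1.35, edgeR adjusted p = 0.0443) and higher at 400 Gy than at 200 Gy (1.84, edgeR adjusted p = 0.0074).

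The phosphatase gene vhp-1 (chromosome II, 5331489 to 5340247, plus strand; 2254 bases) had its highest level at 400 Gy. It was at 32.8 and 29.4 CPM at 0 Gy, 38.4 and 26.96 CPM at 200 Gy, and 71.7 and 135.5 CPM at 400 Gy. Both 400 Gy libraries lay above the other 4, and they differed from each other more than those at 0 Gy. The higher of them, replicate 2, is the library with the largest share of ribosomal RNA. With the ribosomal RNA rows left out of the counts, vhp-1 was at 1.83 for 400 Gy against 200 Gy (edgeR adjusted p = 0.014) and at 1.76 against 0 Gy (edgeR adjusted p = 0.0864). It was higher at 400 Gy than at 200 Gy by 1.67 ± 0.40 on the log2 scale (edgeR adjusted p = 0.0166). Against 0 Gy the value was 1.73 ± 0.40, which did not pass in edgeR (adjusted p = 0.0873). The DESeq2 Wald test, which called 1369 of 14137 genes in this comparison, called vhp-1 (adjusted p = 0.00424). Between 200 Gy and 0 Gy its value was 0.067 ± 0.39 (edgeR adjusted p = 0.916). Its length class had medians of 1.19, 0.41 and -0.74 in these comparisons. Length-corrected, the value against 200 Gy was 0.44 ± 0.38 (edgeR adjusted p = 0.495) and that against 0 Gy 1.32 ± 0.38 (edgeR adjusted p = 0.109). For 200 Gy against 0 Gy it was then 0.88 ± 0.38, with an unadjusted p of 0.0448 and an edgeR adjusted p = 0.172. Without replicate 2 of 400 Gy, the rise over 200 Gy was 1.32 and lost its call (edgeR adjusted p = 0.0755). Without replicate 1 or 2 of 200 Gy, the value against 0 Gy of 1.75 in both fits was called (edgeR adjusted p = 0.0037 and 0.0018).

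In the JNK arm, mlk-1 (chromosome V, 5056780 to 5064777, minus strand; 3180 bases), the first kinase of the KGB-1 chain, moved like tir-1 and nsy-1. Its level was 21.1 and 28.3 CPM at 0 Gy, 7.39 and 12.7 CPM at 200 Gy, and 45.7 and 55.7 CPM at 400 Gy. The doses did not overlap, with 200 Gy lowest and 400 Gy highest. It was higher at 400 Gy than at 200 Gy by 2.33 ± 0.38 on the log2 scale (edgeR adjusted p = 0.00548). Its value of -1.29 ± 0.37 for 200 Gy against 0 Gy lay just short of the threshold (edgeR adjusted p = 0.052), and it was called lower in the DESeq2 Wald test and with DESeq2 size factors, and in edgeR without replicate 2 of 200 Gy (-1.84, adjusted p = 0.0164). For 400 Gy against 0 Gy it was 1.04 ± 0.36 (edgeR adjusted p = 0.158). Length-corrected, these 3 values were 0.24, 0.012 and 0.25. Without replicate 1 or 2 of 200 Gy, mlk-1 was called higher at 400 Gy against 0 Gy (edgeR adjusted p = 0.0434 and 0.036), and without replicate 2 so were tir-1 and nsy-1 (edgeR adjusted p = 0.0494 and 0.0498).

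The gene mek-1 (chromosome X, 7479256 to 7480579, plus strand; 1074 bases) encodes the MAP kinase kinase between MLK-1 and KGB-1. Its level was 113 and 72.8 CPM at 0 Gy, 153 and 69.1 CPM at 200 Gy, and 111 and 74.4 CPM at 400 Gy. All 3 doses overlapped, and replicate 1 was higher than replicate 2 at each. The log2 fold change at 400 Gy against 0 Gy was 0.00059 (95% confidence interval -1.06 to 1.06, edgeR adjusted p = 0.999), and at 200 Gy against 0 Gy it was 0.26 (-0.81 to 1.32, edgeR adjusted p = 0.715). Length-corrected, they were 0.13 and 0.17. Its direction turned with single libraries left out.

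KGB-1 is encoded by kgb-1 (chromosome IV, 405948 to 408886, minus strand; 1173 bases). It was the one member with both 200 Gy libraries above those at 0 Gy: 39.8 and 57.7 CPM at 0 Gy, 74.2 and 91.1 CPM at 200 Gy, and 42.9 and 63.6 CPM at 400 Gy. The libraries at 400 Gy overlapped those at 0 Gy and lay below those at 200 Gy. The differences did not pass, with log2 fold changes of 0.76 ± 0.35 for 200 Gy against 0 Gy (edgeR adjusted p = 0.155) and -0.63 ± 0.35 for 400 Gy against 200 Gy (edgeR adjusted p = 0.202). Length-corrected they were 0.74 ± 0.33 and -0.55 ± 0.33. Its length class had medians of 0.13 before and 0.11 after the correction at 200 Gy against 0 Gy, so little could move. Its near copy kgb-2 was at 4.67 to 8.28 CPM over the 6 libraries, with 0.27 ± 0.44 for 200 Gy against 0 Gy (edgeR adjusted p = 0.684), and 0.081 length-corrected. Reads of the pair may have been split between the copies by the authors' counting.

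The JNK gene jnk-1 (chromosome IV, 6957677 to 6963592, plus strand) had the fewest reads of the 10. Its level was 4.91 and 9.92 CPM at 0 Gy, 2.93 and 3.08 CPM at 200 Gy, and 3.42 and 3.99 CPM at 400 Gy, from 21 to 122 reads per library. Both irradiated doses lay below 0 Gy in all libraries, but the 0 Gy libraries differed the most from each other. The log2 fold change was -1.30 ± 0.50 at 200 Gy (edgeR adjusted p = 0.101) and -0.999 ± 0.49 at 400 Gy (edgeR adjusted p = 0.263), neither past the threshold. Length-corrected they were -0.48 and -1.43 (edgeR adjusted p = 0.58 and 0.178). The table gives jnk-1 a coding length of 2217 bases, while the longest coding sequence in the Ensembl annotation has 1392, so its length-corrected and per-length values rest on a length that may be too high.

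**Figure D2:**
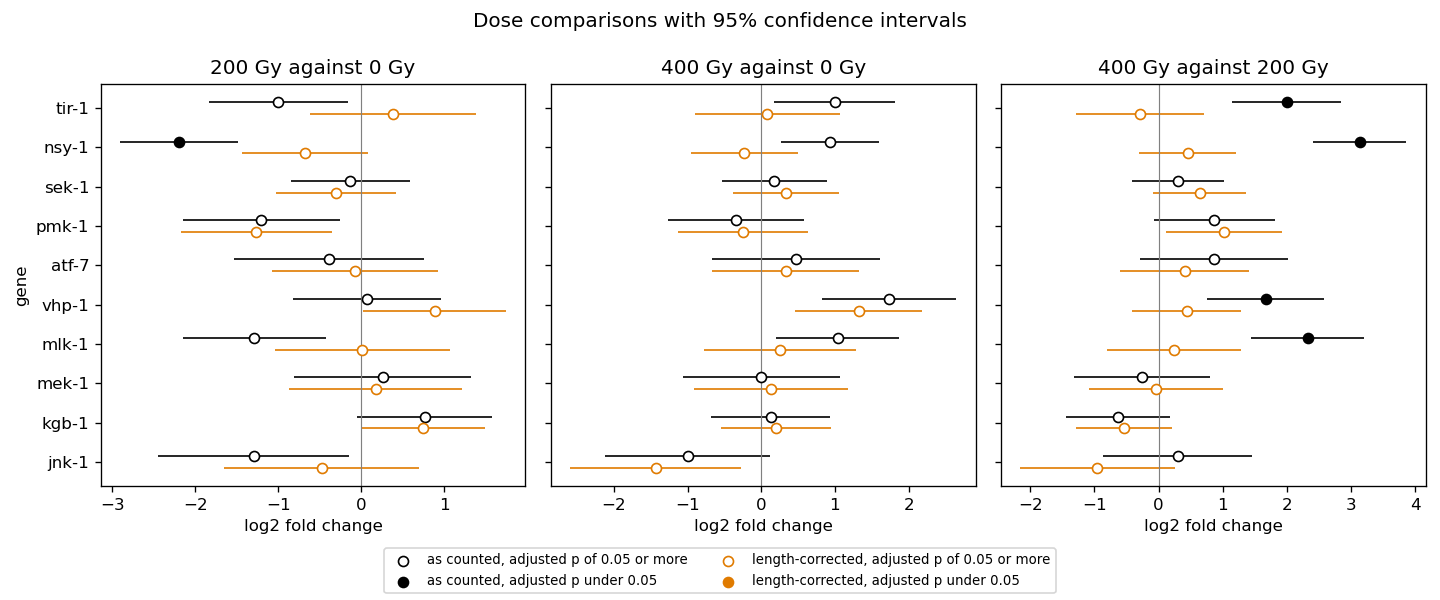
Log2 fold change of each member in the 3 dose comparisons, with its 95% confidence interval (bars), before and after the length correction. The values of tir-1, nsy-1 and mlk-1 moved toward 0 with the correction in the 400 Gy against 200 Gy panel, while those of pmk-1 and kgb-1 stayed near their place. The length class of pmk-1 and kgb-1 had medians of -0.11 before and -0.021 after the correction in that panel.

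Over all 10 members, 1 was called at 200 Gy against 0 Gy, where 15.7% of all genes were called, and it was lower, as were 8.71% of all genes, while 7.03% of all genes were called higher. For 400 Gy against 0 Gy 0 members were called in edgeR, where 0.0486% of all genes were called. In this comparison 4 members (tir-1, nsy-1, vhp-1 and mlk-1) and 22.5% of all genes had an unadjusted p under 0.05 in edgeR. Only vhp-1 of the members was called there by the DESeq2 Wald test, which called 1369 of 14137 genes, 963 of them higher. Between 400 Gy and 200 Gy 4 members were called higher and 0 lower, where 31.2% of all genes were called, 15% higher. Length-corrected, 2.95%, 0.0139% and 4.48% of all genes were called in these comparisons. The median log2 fold change of the members was -0.70, 0.32 and 0.86 in the order of the comparisons, beside 0.099, -0.035 and -0.10 over all genes. Length-corrected the members' medians were -0.033, 0.16 and 0.33. The 3 comparisons share libraries, so their values are not independent of each other.

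**Figure D3:**
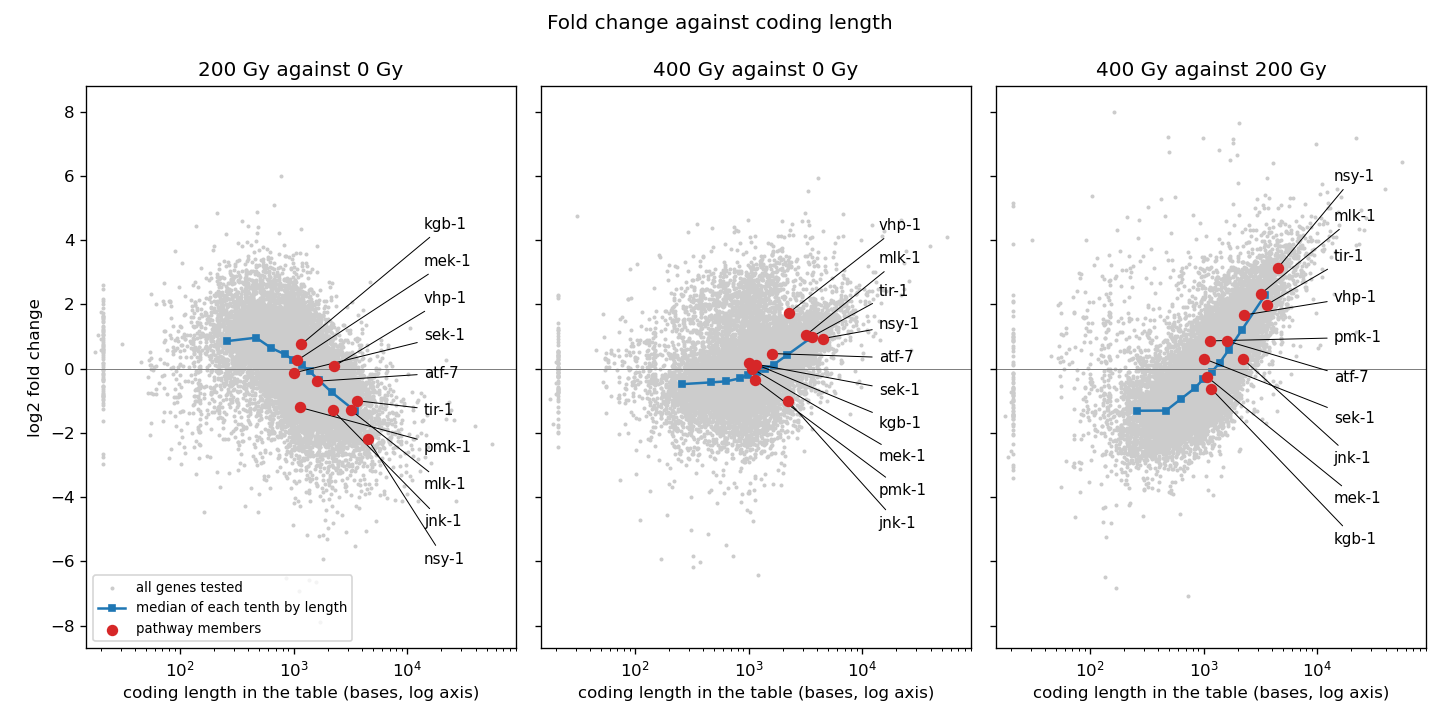
Log2 fold change against coding length (log axis) for the 10 members (labelled points) and the median of all tested genes in 10 length classes (line), in the 3 dose comparisons. At 200 Gy against 0 Gy nsy-1 (-2.20) lies below the median of its class (-1.33), pmk-1 (-1.21) below and kgb-1 (0.76) above the median of theirs (0.13), and mlk-1 (-1.29) close to its own (-1.33).

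Members whose libraries did not overlap between 2 doses were more numerous than those called. In the comparison of 200 Gy with 0 Gy 1 member lay wholly above and 5 wholly below, beside 33.3% and 29.9% of all genes. For 400 Gy against 0 Gy 5 lay above and 1 below (28.1% and 31.1% of all genes), and for 400 Gy against 200 Gy 7 lay above and 1 below (31.1% and 34.6%). Both 200 Gy libraries were below the other 4 for 5 members (tir-1, nsy-1, pmk-1, mlk-1 and jnk-1) and for 20.9% of all genes. Both 400 Gy libraries were above the other 4 for 4 members (tir-1, nsy-1, vhp-1 and mlk-1) and for 16.9% of all genes. These levels carry the length trend of the libraries. The class of the longest genes holds tir-1, nsy-1 and mlk-1, and the next class vhp-1 and jnk-1. Median log2 fold changes of these classes were -1.33 and -0.74 for 200 Gy against 0 Gy. They were 0.95 and 0.41 for 400 Gy against 0 Gy, and 2.30 and 1.19 for 400 Gy against 200 Gy. Overlap was not counted with the length correction.

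Replicates also ran in a fixed order for some members. Replicate 1 exceeded replicate 2 at all 3 doses for atf-7 and mek-1, as it did for 26.8% of all genes. Replicate 2 exceeded replicate 1 at all 3 doses for tir-1, mlk-1, kgb-1 and jnk-1, as it did for 32% of all genes. The summed level of 11 germline and oocyte markers had the order of atf-7 and mek-1, with 4071 and 1503 CPM at 0 Gy, 4504 and 895 CPM at 200 Gy, and 7588 and 3858 CPM at 400 Gy. The part of germline content in the levels of these genes was not tested.

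Markers of other tissues also differed between the doses. The summed level of 6 pharynx markers was 21.9 and 29.8 CPM at 0 Gy, 35.6 and 59.7 CPM at 200 Gy, and 222 and 208 CPM at 400 Gy. That of 9 body wall muscle markers was 2029 and 2894 CPM at 0 Gy, 7137 and 5046 CPM at 200 Gy, and 8627 and 8408 CPM at 400 Gy. Both sums were lowest at 0 Gy and highest at 400 Gy, but their genes differed among themselves. Of the 9 muscle markers 2 rose (unc-27 and lev-11) and 1 fell (unc-22) at 200 Gy against 0 Gy, and 4 were higher at 400 Gy than at 200 Gy (median 1.31). Length-corrected, 2 rose at 200 Gy against 0 Gy (lev-11 and unc-54) and 0 passed at 400 Gy against 200 Gy (median -0.32). Of the 6 pharynx markers 1 rose at 200 Gy against 0 Gy, 2 rose at 400 Gy against 0 Gy and 4 were higher at 400 Gy than at 200 Gy (median 1.93). Length-corrected these counts were 2, 0 and 0 (median 0.74 in the last). Sperm and early embryo markers differed in opposite directions from 0 Gy. The 10 sperm markers summed to 21.1 and 20.98 CPM at 0 Gy, 37.2 and 124 CPM at 200 Gy, and 67.4 and 146 CPM at 400 Gy, with 1 of them at 0 in some library. Early embryo markers, 9 in number with 3 at 0 in some library, had 64.03 and 93.6 CPM at 0 Gy, 10.6 and 13.6 CPM at 200 Gy, and 30.7 and 32.7 CPM at 400 Gy.

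The 10 neuron markers summed to between 384 and 564 CPM in all libraries, with none at 0, but 2 of them fell and 1 rose at 200 Gy against 0 Gy (median log2 fold change -0.94). Those that fell were unc-13 (-3.38 ± 0.53) and unc-31 (-2.66 ± 0.53), and snb-1 rose (1.19 ± 0.33). Length-corrected, 0 of the 10 passed, with a median of -0.77. The 10 intestine markers, from the tissue in which the p38 arm acts in defence, summed to 22500 and 39250 CPM at 0 Gy, 47030 and 17000 CPM at 200 Gy, and 64500 and 37930 CPM at 400 Gy. At 200 Gy against 0 Gy 7 of the 10 were positive and 0 passed, with a median of 0.30, and length-corrected the median was 0.96 and 1 rose, vha-6 (1.88, edgeR adjusted p = 0.042). The part of these tissue markers in the members' levels was not tested.

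Levels of different genes were compared per kilobase of coding length. At 0 Gy the order was mek-1 (86.5 ± 26.4 CPM per kilobase, SD, n = 2), atf-7 (84.9 ± 36.4), kgb-1 (41.6 ± 10.8), sek-1 (24.5 ± 0.34), pmk-1 (16.03 ± 4.91), vhp-1 (13.8 ± 1.07), mlk-1 (7.77 ± 1.59), nsy-1 (7.43 ± 0.13), tir-1 (6.98 ± 2.20) and jnk-1 (3.35 ± 1.60). The libraries of mek-1 and atf-7 overlapped, as did those of pmk-1 and vhp-1 and those of mlk-1, nsy-1 and tir-1, so neighbours within these sets did not differ beyond their spread. At 0 Gy the first kinases nsy-1 and mlk-1 lay below the middle and final kinases of their chains. At 400 Gy nsy-1 was at 1.06 and 1.19 times the level of pmk-1 per kilobase in the 2 libraries. Per-kilobase levels were not corrected for the length trend of the libraries, which differed between doses. Shifts between doses in the order of genes of unlike length therefore carry that trend. Length-corrected, the log2 fold change of nsy-1 was -0.23 for 400 Gy against 0 Gy. From jnk-1 to mek-1 the levels spanned 25.8-fold at 0 Gy. At 200 Gy this span was 76.3-fold and at 400 Gy, from jnk-1 to atf-7, 70.3-fold. Each span rests on jnk-1, which had the fewest reads and a length that may be too high. At 400 Gy vhp-1 was next below atf-7 and mek-1, at 46.0 ± 20.0 CPM per kilobase, level with kgb-1 at 45.4 ± 12.4.

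**Figure D4:**
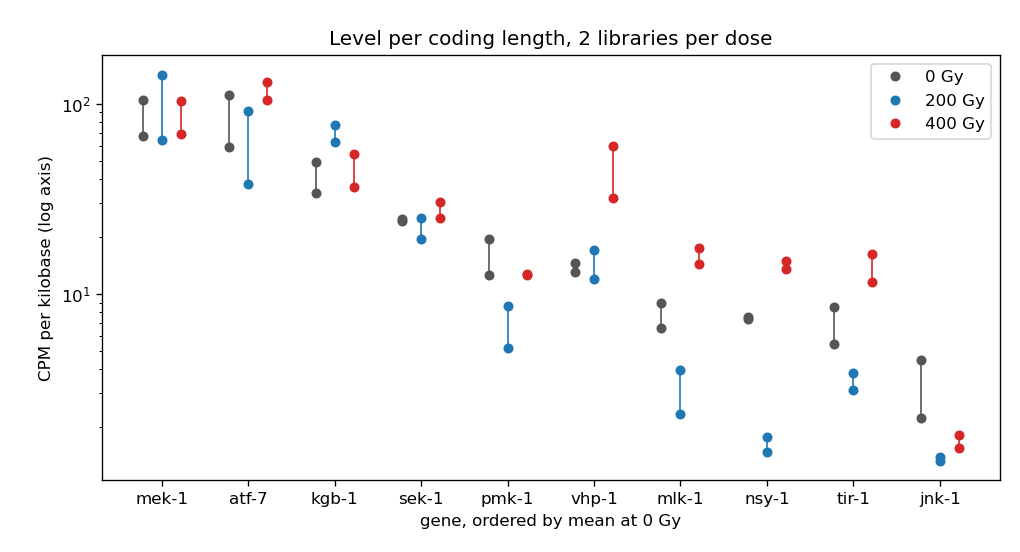
Level per kilobase of coding length (CPM per kilobase, log axis) of the 10 members in each library, by dose. The genes mek-1, atf-7 and kgb-1 have the highest means at 0 Gy and 200 Gy, jnk-1 has the lowest mean at each dose, and vhp-1 stands higher at 400 Gy than at the other doses.

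The genes pmk-1 and kgb-1, the final kinases of the chains, have nearly the same coding length (1134 and 1173 bases), so their ratio is little touched by the length trend. The level of kgb-1 per kilobase was 2.70 and 2.52 times that of pmk-1 at 0 Gy, 12.2 and 8.97 times at 200 Gy, and 2.87 and 4.31 times at 400 Gy. Both ratios at 200 Gy exceeded the other 4. This pair was chosen after its values were seen, so the ratio is a description with no test. The ratio of mek-1 to sek-1, the middle kinases of 1074 and 1011 bases, overlapped between doses, with 4.34 and 2.74 in the 0 Gy libraries, 7.32 and 2.56 in the 200 Gy libraries and 3.42 and 2.77 in the 400 Gy libraries.

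The members with the most similar profiles over the 6 libraries were tir-1 and mlk-1, with a Pearson correlation of log2 CPM of 0.98. For mlk-1 and nsy-1 it was 0.94, and for tir-1 and nsy-1 0.92. The points share the libraries and their length trend, and length-corrected the same correlations were 0.78, 0.60 and 0.19. That of pmk-1 with nsy-1 was 0.73, and 0.85 length-corrected. Among 9837 tested genes with a mean of at least 5 CPM, the 5 most like pmk-1 were T19D12.6, DH11.5, jmjc-1, F56C9.8 and unc-77, with correlations from 0.993 to 0.997 over 6 libraries, and 67 genes exceeded 0.95. The 5 most like kgb-1 were F16H6.10, R07E3.1, F56D2.5, C17H12.8 and C29F3.7, from 0.989 to 0.995, and 109 genes exceeded 0.95. Of these 10 genes, C17H12.8 is also in the list of PMK-1 dependent defence genes below.

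The counts in the lists below, and in the marker lists above, stand beside these shares of all genes. At 200 Gy against 0 Gy 7.03% were called higher and 8.71% lower. For 400 Gy against 0 Gy 0.0486% were called in edgeR and 22.5% had an unadjusted p under 0.05. The DESeq2 Wald test called 1369 of 14137 genes in that comparison. Between 400 Gy and 200 Gy 15% were called higher and 16.2% lower. Length-corrected, 2.95%, 0.0139% and 4.48% were called in this order, and 27.4%, 18.1% and 25.6% had an unadjusted p under 0.05. Around the cascades, a list of other kinases drawn up for p38 and JNK modules was examined. Whether its genes mom-4 and lit-1 act in either module was not tested. Of the list, 14 of 16 could be tested. Of these 3 fell and 0 rose at 200 Gy against 0 Gy (median log2 fold change -0.31), and 5 were higher and 0 lower at 400 Gy than at 200 Gy. Between 400 Gy and 0 Gy 0 passed in edgeR or the DESeq2 Wald test and 1 had an unadjusted p under 0.05. The strongest was mtk-1, a MAP kinase kinase kinase of 4263 bases, with 85.6 and 105.5 CPM at 0 Gy, 17.6 and 25.1 CPM at 200 Gy, and 153 and 135.4 CPM at 400 Gy. It fell by 2.16 ± 0.35 on the log2 scale at 200 Gy against 0 Gy (edgeR adjusted p = 0.0213) and was higher by 2.75 ± 0.35 at 400 Gy than at 200 Gy (edgeR adjusted p = 0.00322). Length-corrected its values were -0.60 and 0.072. Other kinases called in both were mom-4, of the TAK1 type (-1.57 ± 0.40 and 1.79 ± 0.40), and zak-1, a mixed lineage type kinase (-1.98 ± 0.53 and 2.61 ± 0.54). For mom-4, of 1611 bases, the length-corrected values were -1.23 and 1.31 (edgeR adjusted p = 0.0847 and 0.0727). Length-corrected, 0 of the 14 passed in any comparison, and 3, 0 and 3 had an unadjusted p under 0.05.

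Inputs, scaffolds and regulators of the cascades (21 of 22 tested) had a median coding length of 2799 bases. After 200 Gy 4 fell and 0 rose against 0 Gy (median -0.42): rpm-1, a ubiquitin ligase that limits the DLK-1 axon pathway (-2.71 ± 0.51), fshr-1, a receptor of the intestinal defence (-1.64 ± 0.38), olrn-1, which acts upstream of NSY-1 (-1.96 ± 0.47), and nipi-3, a Tribbles-type pseudokinase (-1.18 ± 0.31). From 200 Gy to 400 Gy 10 were higher and 1 lower (median 1.23), led by rpm-1 (3.86 ± 0.51), fshr-1 (2.63 ± 0.39), nipi-3 (1.95 ± 0.32) and the phospholipase C gene egl-8 (1.94 ± 0.32). For 400 Gy against 0 Gy 0 passed in edgeR or the DESeq2 Wald test, and 8 had an unadjusted p under 0.05. Length-corrected, 0 of the 21 passed in any comparison (4, 2 and 8 at an unadjusted p under 0.05), with rpm-1 and egl-8 turned to -0.50 and -0.69 at 400 Gy against 200 Gy. Of the transcription factors and their regulators (12 of 12 tested), 0 passed against 0 Gy in edgeR or the DESeq2 Wald test (3 at either dose at an unadjusted p under 0.05) and 3 were higher at 400 Gy than at 200 Gy: wdr-23, which keeps SKN-1 low (1.60 ± 0.39), the FOXO gene daf-16 (1.85 ± 0.47) and the Nrf-type gene skn-1 (1.84 ± 0.56). Length-corrected, 0 of these passed, and 2, 3 and 2 of the 12 had an unadjusted p under 0.05.

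The next list held genes known to need PMK-1 for their expression in the intestine. Of 10 tested, 4 rose and 0 fell at 200 Gy against 0 Gy (median 0.96), beside 7.03% higher and 8.71% lower of all genes. At 400 Gy against 200 Gy 0 were higher and 5 lower, beside 15% and 16.2% of all genes. The C-type lectin gene clec-85 had 158 and 165 CPM at 0 Gy, 907 and 822 CPM at 200 Gy, and 127 and 128 CPM at 400 Gy. It rose by 2.42 ± 0.34 on the log2 scale at 200 Gy against 0 Gy (edgeR adjusted p = 0.0213) and was lower by 2.76 at 400 Gy than at 200 Gy (log2 fold change -2.76 ± 0.35, edgeR adjusted p = 0.00322). A lectin of the same family, clec-67, was at 37.3 and 35.2 CPM at 0 Gy, 263 and 145 CPM at 200 Gy, and 121 and 136 CPM at 400 Gy, with 2.49 ± 0.39 at 200 Gy against 0 Gy (edgeR adjusted p = 0.0213). The lysozyme gene lys-2 (2.79 ± 0.40) and K08D8.5 (1.91 ± 0.39) were the others that rose.

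The median coding length of this list was 1035 bases. Its length class had medians of 0.27 before and 0.093 after the correction at 200 Gy against 0 Gy. For 400 Gy against 200 Gy the medians of that class were -0.32 and 0.0021. The median of the list went there from -1.27 to -1.04 with the correction, and its lower calls from 5 to 3. Some calls of this list thus also passed with the length correction. Then 3 of 10 rose at 200 Gy against 0 Gy (edgeR adjusted p = 0.0394 for clec-85, 0.0394 for lys-2 and 0.036 for clec-67) and 3 were lower at 400 Gy than at 200 Gy, with log2 fold changes of -2.20 for clec-85, -1.72 for lys-2 and -1.81 for K08D8.5. The rise of K08D8.5 was left just outside (1.76, edgeR adjusted p = 0.0501). Without either 0 Gy library 0 genes of the list, as of all genes, were called at 200 Gy against 0 Gy. Between 400 Gy and 0 Gy 0 of 10 passed in edgeR, 3 had an unadjusted p under 0.05, and 3 were called by the DESeq2 Wald test. There 3 of the 10 were positive and 7 negative (median -0.27). Mean levels at 0 Gy and 400 Gy were 41.5 and 11.8 CPM for T24B8.5 and 52.5 and 15.8 CPM for F08G5.6. They were 64.5 and 37.9 CPM for F35E12.5, and 36.3 and 128.5 CPM for clec-67, which went the other way. Of the 10, 8 were positive and 2 negative at 200 Gy against 0 Gy. Of the 10 intestine markers 7 were positive and 3 negative in that comparison, with log2 fold changes from -0.47 for pept-1 to 1.66 for act-5, and 0 passed. Length-corrected, the median of the intestine markers was 0.96, beside 1.11 for the defence list, and the part of intestine content in these genes was not tested.

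Further lists held genes of other stress responses. Of 6 epidermal antimicrobial peptide genes, induced through p38 signalling on wounding or fungal infection, 2 rose at 200 Gy against 0 Gy, nlp-27 (1.93 ± 0.51) and nlp-31 (1.81 ± 0.48), and 4 were lower at 400 Gy than at 200 Gy. They are short genes (median 214.5 bases), and length-corrected 0 passed at 200 Gy against 0 Gy (2 at an unadjusted p under 0.05) and 1 was lower at 400 Gy than at 200 Gy, nlp-31 (-1.59, edgeR adjusted p = 0.0415). Of 9 epidermis markers 1 rose and 4 fell at 200 Gy against 0 Gy (median -1.69), the latter being noah-1 (-3.95), qua-1 (-4.27), che-14 (-2.67) and dpy-7 (-1.78). Length-corrected, 1 rose and 2 fell (median -1.62). Their sum, carried by the collagen gene col-19 (2.49 ± 0.41), was 978 and 1183 CPM at 0 Gy, 3903 and 3639 CPM at 200 Gy, and 2521 and 1906 CPM at 400 Gy, and its part in the peptide genes was not tested. Of 5 detoxification genes controlled by SKN-1, 2 rose at 200 Gy against 0 Gy. One of them, the glutathione transferase gene gst-5, had 39.5 and 49.3 CPM at 0 Gy, 258 and 299.8 CPM at 200 Gy, and 41.9 and 55.8 CPM at 400 Gy (2.65 ± 0.36, edgeR adjusted p = 0.0208, and 2.11 length-corrected, edgeR adjusted p = 0.0385). The other was gst-7 (1.77 ± 0.37), which did not pass length-corrected (1.20, edgeR adjusted p = 0.094). In contrast gcs-1, the first enzyme of glutathione synthesis, was higher at 400 Gy than at 200 Gy (1.47 ± 0.42, edgeR adjusted p = 0.0319, and 0.53 length-corrected, edgeR adjusted p = 0.441), while 3 genes of the list were lower.

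Of the heavy metal and KGB-1 response genes, 4 of 6 could be tested and 1 rose at 200 Gy against 0 Gy. This was F53A9.2, also named kreg-1 and known to be induced by KGB-1, with 2.29 and 2.11 CPM at 0 Gy, 7.67 and 7.13 CPM at 200 Gy, and 1.75 and 3.18 CPM at 400 Gy (1.74 ± 0.49, edgeR adjusted p = 0.0486). It has 252 bases, and length-corrected its value was 0.95 (edgeR adjusted p = 0.234). For comparison with a MAP kinase module outside the stress cascades, 7 genes of the ERK module were read. Of these 2 fell at 200 Gy against 0 Gy and 2 were higher at 400 Gy than at 200 Gy, the Raf gene lin-45 (-1.84 ± 0.52 and 2.91 ± 0.54) and the scaffold gene ksr-1 (-1.77 ± 0.40 and 1.53 ± 0.40). Length-corrected, 0 passed in any comparison (1, 1 and 2 at an unadjusted p under 0.05). For 400 Gy against 0 Gy 0 genes of the epidermal, SKN-1, metal and ERK lists passed in edgeR, where 0, 1, 0 and 1 had an unadjusted p under 0.05 and 0, 1, 0 and 0 were called by the DESeq2 Wald test. Of the 7 ERK module genes, 2 were positive and 5 negative at 200 Gy against 0 Gy, and no difference between the modules was tested.

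**Figure D5:**
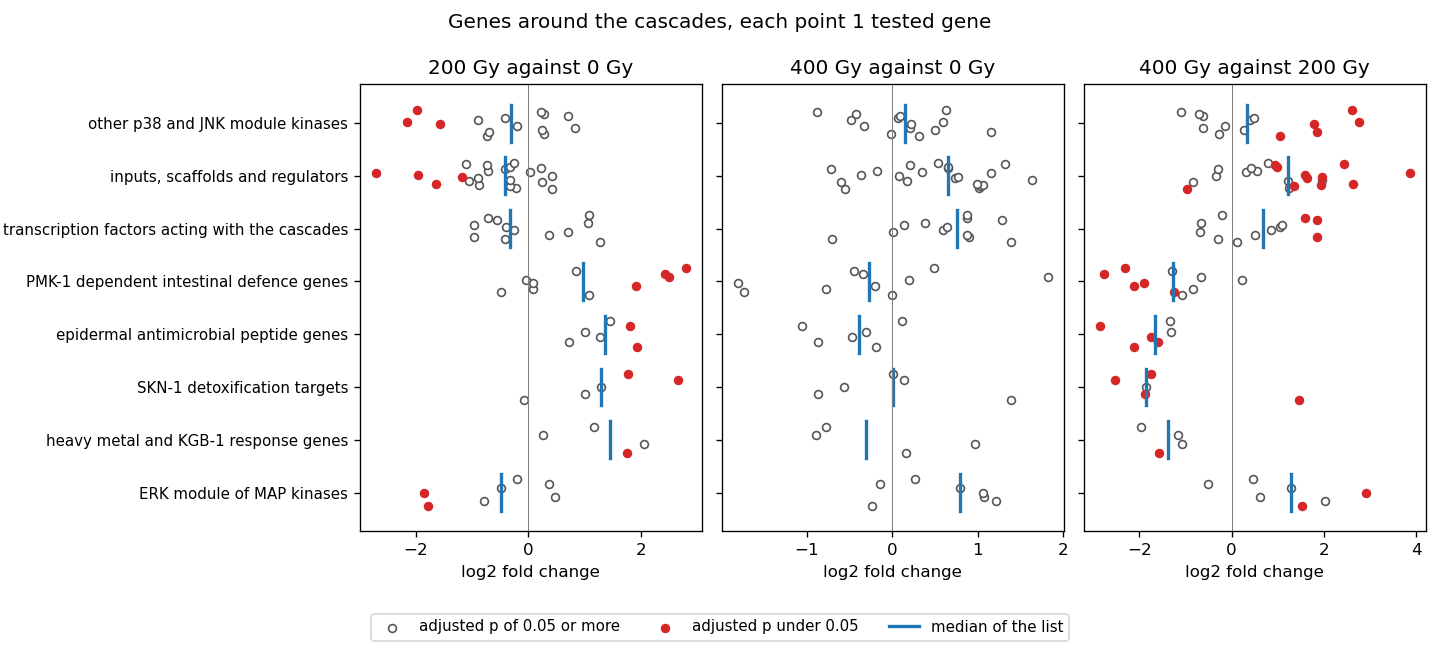
Log2 fold change of each tested gene in 8 lists around the cascades, in the 3 dose comparisons, with the median of each list (vertical bar); filled points passed an adjusted p of 0.05 in edgeR. Kinases, inputs and the ERK module lie to the left of 0 at 200 Gy against 0 Gy where they passed, and the defence and detoxification genes that passed there lie to the right.

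Some members share exonic bases with neighbouring genes in the Ensembl annotation, and the library kit does not mark strand. The overlaps were 56 bases of nsy-1 with wdr-83, 33 of nsy-1 with F59A6.13, 70 of sek-1 with R03G5.6, 72 of atf-7 with C07G2.5, 97 of mlk-1 with cwp-4 and 4 of jnk-1 with B0478.3, all protein-coding. In addition 1 piRNA gene lay within exons of tir-1 and 4 within exons of jnk-1, with 21 bases each. Reads from these stretches could be counted to either gene.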

How the data were processed

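The deposited table gives raw read counts and RPKM per gene for 6 RNA-seq libraries of whole worms. Trizol RNA went into TruSeq RNA libraries, per the labels' protocols. The submitters' processing notes name TopHat2 2.0.13, bcl2fastq and WBcel235. The counter, annotation and strand setting are not given in the sources used. Each RPKM value deposited by the authors equals the count divided by the table's length and the library's total, so the tests used the counts. Of the lengths of tested genes 91.7% are multiples of 3, and they are written here as coding lengths.

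Counts were filtered with filterByExpr, scaled by TMM and tested in edgeR 4.0.16 (R 4.3.3) by the quasi-likelihood test, in 1 model over 6 libraries with 3 residual degrees of freedom, adjusted by Benjamini-Hochberg over 14417 genes at a threshold of 0.05. The common biological coefficient of variation was 35.1%. Standard errors were derived from the F statistics. The length correction entered a loess trend (span 0.3) of each library's log2 deviation on log2 coding length as an offset. Profiles used log2 CPM with a prior count of 2. Alternatives were DESeq2 1.42.0 size factors and its Wald test, upper-quartile scaling, no filter, a mean of at least 5 CPM, no ribosomal RNA rows, fits of 4 libraries, a replicate block, and leaving out each library. The edgeR test, with TMM and no filter, was tried on simulated counts that held no length trend. The length correction, the replicate block and DESeq2 were not tried on them. Intervals cover the spread between libraries.

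The members, lists and the length correction were chosen with earlier results of these data known. All 10 members are named whatever their p. Of each list, up to 4 genes with the smallest p per comparison could be named, and not all of these are printed. Levels of pmk-2, pmk-3 and kgb-2 are given as relatives of members. Of 158 list genes, 155 were found by name and 3 by another name. Groups of 2 libraries allow no outlier test. No sequences are printed.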

Additional observations from a re-analysis of the deposited data

How the results depend on the processing

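With the length correction 426, 2 and 646 genes were called at 200 Gy against 0 Gy, 400 Gy against 0 Gy and 400 Gy against 200 Gy, and 0 members in each (main counts 2269, 7 and 4495 genes and 1, 0 and 4 members). With it, tir-1 turned to 0.38 and mlk-1 to 0.012 at 200 Gy against 0 Gy, nsy-1 to -0.23 at 400 Gy against 0 Gy, and tir-1, jnk-1, rpm-1 and egl-8 to -0.29, -0.95, -0.50 and -0.69 at 400 Gy against 200 Gy. At 200 Gy against 0 Gy 2 members were called with DESeq2 size factors, beside 2448 of 14417 genes. The DESeq2 Wald test called 3 members there, beside 3347 of 14137 genes. Without ribosomal RNA rows 2 members were called, beside 2167 of 14380 genes. At 400 Gy against 0 Gy 273 genes were called with DESeq2 size factors, 1369 and 1 member by the Wald test, 230 without a filter, and 2145 and 2 members with only the 4 libraries compared. Replicate numbers were not tied to a batch or culture by the labels, and 2 numbers cannot show pairing; same-numbered libraries deviated together (correlations 0.48, 0.38 and 0.60 across genes). A fit with the replicate block called 6444, 3586 and 7640 genes and 6, 4 and 7 members. The 4 at 400 Gy against 0 Gy were tir-1, nsy-1, vhp-1 and mlk-1, all higher (adjusted p = 0.0176, 0.0212, 0.0103 and 0.0173), and kgb-1 was among the others (0.78 at 200 Gy against 0 Gy, adjusted p = 0.0212, and -0.65 at 400 Gy against 200 Gy, adjusted p = 0.0346). With block and length correction the fit called 4598, 2426 and 4522 genes and 3 (pmk-1, vhp-1 and kgb-1), 2 (vhp-1 and jnk-1) and 1 (pmk-1) members. In the latter, values that turned were tir-1 (0.35) at 200 Gy against 0 Gy, nsy-1 (-0.25) at 400 Gy against 0 Gy, and tir-1 (-0.27), mek-1 (0.039), jnk-1 (-0.93), rpm-1 (-0.44) and egl-8 (-0.68) at 400 Gy against 200 Gy. Leaving out 1 library gave 0 to 4708, 0 to 2438 and 1332 to 5837 genes, and 0 to 3, 0 to 4 and 3 to 5 members. At 200 Gy against 0 Gy 0 genes were called without either 0 Gy library, although 3229 and 3011 had an unadjusted p under 0.05, and at 400 Gy against 0 Gy 2304 and 2438 genes and 2 and 4 members were called without replicate 1 or 2 of 200 Gy. Elsewhere small values turned sign, and with 1 library left out vhp-1 reached 0.20, atf-7 -1.35 and mek-1 0.62 at 200 Gy against 0 Gy, mek-1 0.36 and kgb-1 0.40 at 400 Gy against 0 Gy and mek-1 -0.60 at 400 Gy against 200 Gy. The values that turned were these: at 200 Gy against 0 Gy vhp-1 was -0.064 without ribosomal RNA rows, -0.045 with 4 libraries, and -0.028, -0.40 and -0.080 without replicate 2 of 0 Gy, replicate 1 of 200 Gy and replicate 2 of 400 Gy. There mek-1 was -0.041 and -0.62 without replicate 2 of 0 Gy and replicate 1 of 200 Gy, and atf-7 0.14 and 0.0028 without replicate 1 of 0 Gy and replicate 2 of 200 Gy. At 400 Gy against 0 Gy mek-1 was -0.085 with upper-quartile scaling, -0.0080 without a filter, -0.027 at a mean of at least 5 CPM, -0.011 with 4 libraries, and -0.30 and -0.33 without replicate 2 of 0 Gy and replicate 1 of 400 Gy, and kgb-1 -0.12 and -0.14 without replicate 1 of 0 Gy and replicate 2 of 400 Gy. At 400 Gy against 200 Gy mek-1 was 0.64 and 0.18 without replicate 1 of 200 Gy and replicate 2 of 400 Gy. The cause of these moves was not tested. The gene jnk-1 had no value at a mean of at least 5 CPM. With 2 libraries per dose, a comparison that did not pass does not show that a gene was unchanged, and its interval gives the changes left possible.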
